A study of Mus musculus with 6 samples.

Results

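Genes of ileal bile acid uptake and of the bile acid hormone Fgf15 were followed in RNA from the intestine of newborn C57BL/6 mice, an inbred laboratory strain. The group of 8 genes was taken by name from the 54532 genes in the count tables: Slc10a2, Fabp6, Slc51a, Slc51b, Nr1h4, Fgf15, Nr0b2 and Abcb11. Each name matched 1 row. The study compared tissue after 5 days with NECA, an adenosine analogue that activates several adenosine receptors, with tissue given DMSO, the solvent control, in 3 libraries per group. The series title sets the work within research on necrotizing enterocolitis, a severe bowel inflammation of newborns. Bowel segment, exact age and route of NECA are not in the labels, nor is it stated whether each library is a different animal, so p-values measure the spread between libraries, which may be partly technical.

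Bile acids are made in the liver, released into the small bowel to dissolve fat and taken back up in the ileum, its last segment. There the sodium-dependent transporter Slc10a2 carries them in at the brush border, Fabp6 binds them in the cytosol, and the Slc51a and Slc51b subunits together export them to the blood side. Inside the enterocyte they activate the nuclear receptor Nr1h4 (FXR), which pairs with an RXR receptor and switches on Fabp6, the Slc51 genes, Nr0b2 (SHP, a repressor) and Fgf15, a hormone that travels to the liver and lowers bile acid synthesis. Abcb11, the bile salt export pump of hepatocytes, is an Nr1h4 target in liver. In rats Slc10a2 is known to stay low until around weaning.

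Promoters of 7 of the 8 genes, all but Fgf15, were matched by symbol. The 2 below are shown because they carry letters resembling known binding sites in the genes whose levels are described next. They are RefSeq sequences of build GRCm38.p6, from 250 bases before to 50 after the RefSeq start of the gene, printed 5′ to 3′ on the gene's own strand. Capitals mark the matches to GGTNANTNACC, the core of the inverted repeat bound by FXR with RXR. The pattern reads the same on either strand, its matches do not overlap each other here, and it was chosen after the sequences were seen.
Fabp6 (chr11:43601513-43601812, minus strand): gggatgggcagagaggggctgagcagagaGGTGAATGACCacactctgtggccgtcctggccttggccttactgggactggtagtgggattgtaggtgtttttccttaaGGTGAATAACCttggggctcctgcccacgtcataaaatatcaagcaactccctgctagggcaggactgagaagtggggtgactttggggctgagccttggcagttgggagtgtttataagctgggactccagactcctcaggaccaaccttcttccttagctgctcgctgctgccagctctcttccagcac
Slc51b (chr9:65422724-65423023, minus strand): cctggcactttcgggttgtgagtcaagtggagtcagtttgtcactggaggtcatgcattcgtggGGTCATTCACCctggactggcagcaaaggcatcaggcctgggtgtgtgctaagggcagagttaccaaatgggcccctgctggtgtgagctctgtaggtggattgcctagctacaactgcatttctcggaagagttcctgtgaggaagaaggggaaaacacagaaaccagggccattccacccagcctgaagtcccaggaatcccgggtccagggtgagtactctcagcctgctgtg

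Fabp6 held 2 matches to the inverted repeat, starting 221 and 141 bases upstream of the start. Slc51b held 1, starting 186 bases upstream. Of 32851 promoter windows of the same length, 86 (0.262%) held this pattern. The full consensus AGGTCANTGACCT was in 3 windows (0.00913%) and in none of these genes. The windows of Slc10a2, Slc51a, Nr1h4, Nr0b2 and Abcb11 held neither pattern. A match is a run of letters, not a site, and no binding was measured here.

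The libraries held 15917018 to 18065078 counts in NECA and 15531996 to 17922697 in DMSO. Levels are given as counts, as CPM (counts scaled to library size with TMM factors) or, between genes, as the authors' FPKM, which is also divided by transcript length. All 7 epithelial markers were present in every library, with summed levels of 7697 to 8343 CPM in NECA and 6937 to 8168 CPM in DMSO. NECA replicate 2 stood apart from the other 5: transcripts of the mitochondrial chromosome took 1.31% of its counts, against 2.80% to 8.39% in the others, and the summed level of the 10 proximal small bowel genes was 1275 CPM, against 25670 to 29870 CPM in the others. Values of the 8 genes and of the lists that turn on that library are given with and without it.

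None of the 8 genes passed the threshold in the comparison of NECA with DMSO. In edgeR's quasi-likelihood fit of all 15847 genes tested, with p-values adjusted by Benjamini-Hochberg, 0 genes were called (0%), and the smallest adjusted p was 0.589. All 8 genes passed the filter on low counts, and their adjusted p was 0.738, or 0.767 for Nr0b2. DESeq2 called 11 genes (0.0694%), none of the 8. In edgeR's fit 1 of the 8, Abcb11, had an unadjusted p under 0.05, and it was lower in NECA, where 3.03% of all genes were. The libraries of the groups did not overlap in that gene, as in 7.16% of all genes in the same direction. Of the 8 genes, 0 were higher in NECA at an unadjusted p under 0.05 (2.45% of all genes) and 0 lay above DMSO without overlap (6.51% of all genes).

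**Figure D1:**
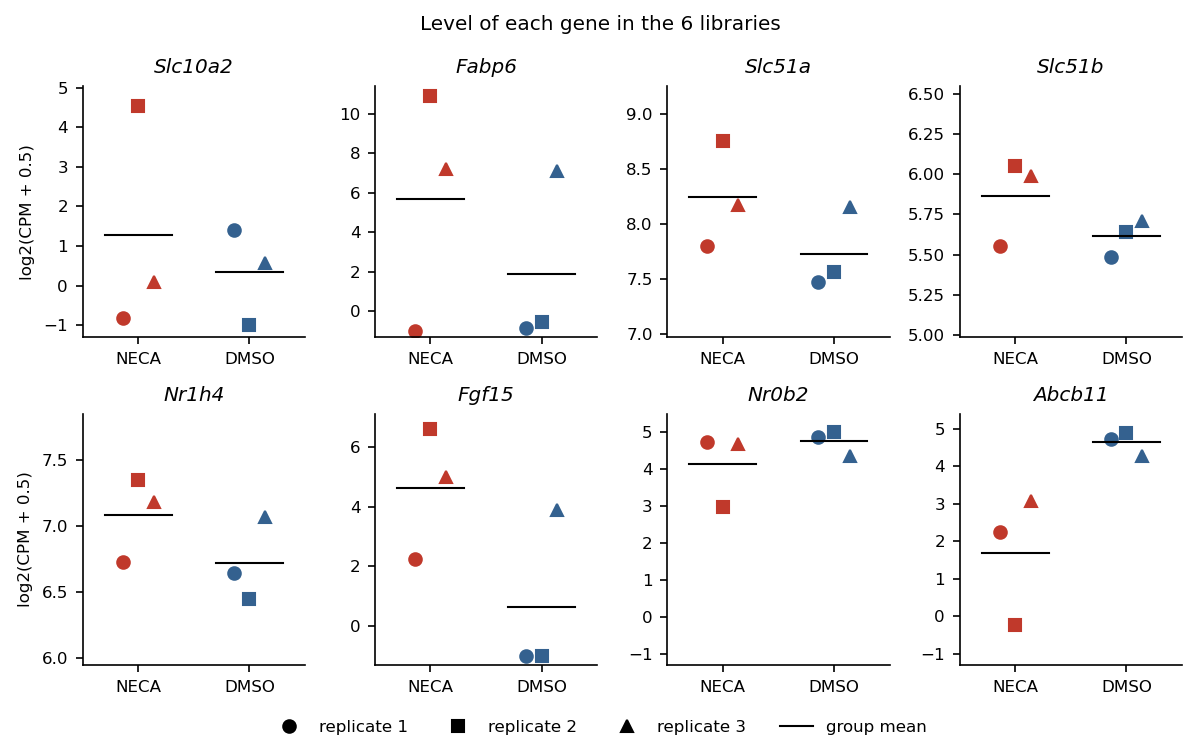
Level of each of the 8 genes in each library as log2(CPM + 0.5), NECA left and DMSO right in every panel, with a symbol per replicate number and a line at the group mean. The groups separate in Abcb11, and NECA replicate 2 is the highest library in 6 panels and the lowest in Nr0b2 and Abcb11.

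Slc10a2 (ENSMUSG00000023073; chromosome 8, 5083219 to 5105351, minus strand), the brush border uptake transporter, was nearly absent outside 1 library. It had 1, 458 and 10 counts in NECA replicates 1 to 3, against 39, 0 and 16 in DMSO. NECA replicate 2 was far above the rest, and the other libraries of the groups overlapped. That library held 85.7% of the normalised level summed over the 6. In CPM the values were 0.0645, 22.8 and 0.573 in NECA and 2.17, 0 and 0.999 in DMSO, where a floor of 3 counts corresponds to 0.149 to 0.200 CPM per library. The log2 fold change of NECA over DMSO was 2.86 (SE 1.69; edgeR adjusted p = 0.738). It was -1.70 (SE 1.31) without NECA replicate 2, so that the direction of the difference turned on that library.

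Fabp6 (ENSMUSG00000020405; chromosome 11, 43596049 to 43601540, minus strand), the cytosolic bile acid carrier, was either high or almost undetected. It had 0, 38381 and 2605 counts in NECA, against 1, 3 and 2159 in DMSO. These counts correspond to 0, 1911 and 149 CPM in NECA and to 0.0557, 0.200 and 135 CPM in DMSO. High and near-empty libraries occurred in both groups: NECA replicates 2 and 3 and DMSO replicate 3 were high, and NECA replicate 1 and DMSO replicates 1 and 2 were at or below 3 counts. The mean was 687 ± 1063 CPM in NECA and 45.0 ± 77.8 CPM in DMSO (SD, n = 3 each), with each SD larger than its mean. The log2 fold change was 3.93 (SE 2.75; edgeR adjusted p = 0.738), and 0.73 (SE 2.19) without NECA replicate 2. Per transcript length Fabp6 reached 3951 FPKM in NECA replicate 2 and was above the intestinal fatty acid-binding protein Fabp2 (618 FPKM) and the liver-type Fabp1 (41.3 FPKM) of the same library. Both of those were far lower in that library than in the other 5, where Fabp2 was at 3408 to 5043 FPKM and Fabp1 at 3757 to 4955 FPKM. In NECA replicate 3 and DMSO replicate 3 its FPKM was 0.0683 and 0.0820 times that of Fabp2. Fabp1 and Fabp2, which carry fatty acids in enterocytes, were set beside it after their values were seen.

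The 2 subunits of the basolateral exporter, which work as a heteromer, were present in all 6 libraries and varied far less than Fabp6. Slc51a (ENSMUSG00000035699; chromosome 16, 32474504 to 32487879) was at 222, 430 and 288 CPM in NECA and 177, 188 and 285 CPM in DMSO. Slc51b (ENSMUSG00000053862; chromosome 9, 65412714 to 65422955) was at 46.5, 65.7 and 62.9 CPM in NECA and 44.4, 49.5 and 51.8 CPM in DMSO. NECA replicate 1 lay within the DMSO range in both genes, and the groups overlapped. The log2 fold change was 0.53 (SE 0.30) for Slc51a and 0.27 (SE 0.17) for Slc51b, both at an edgeR adjusted p of 0.738, and 0.24 (SE 0.23) and 0.18 (SE 0.16) without NECA replicate 2. In FPKM the subunits were near 1 to 1: the ratio of Slc51a to Slc51b was 1.06, 1.45 and 1.02 in NECA and 0.883, 0.844 and 1.22 in DMSO. The highest library exceeded the lowest by 2.43 times for Slc51a and 1.48 times for Slc51b. Each gene overlaps a gene on the opposite strand, Pcyt1a and Rasl12, and the sources used here do not say whether strand was used in counting. Pcyt1a had fewer counts in NECA replicate 2, where Slc51a was highest, than in the other libraries (3717 against 4755 to 7736), and Rasl12 had 73 counts there against 110 to 221, with Slc51b also highest there.

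The bile acid receptor Nr1h4 (ENSMUSG00000047638; chromosome 10, 89454234 to 89533585) was at 105, 162 and 145 CPM in NECA and 99.8, 87.0 and 134 CPM in DMSO. It was therefore present also in the libraries without Fabp6. DMSO replicate 3 lay above NECA replicate 1, so that the groups overlapped. The log2 fold change was 0.36 (SE 0.23; edgeR adjusted p = 0.738), and 0.23 (SE 0.22) without NECA replicate 2. Libraries ranked alike in Slc51a, Slc51b, Nr1h4, Fabp6 and Fgf15 at the top: in all 5 the highest was NECA replicate 2, followed by NECA replicate 3 and then DMSO replicate 3.

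Fgf15 (ENSMUSG00000031073; chromosome 7, 144896531 to 144900953, plus strand), the ileal hormone, had 65, 1949 and 549 counts in NECA, against 0, 0 and 231 in DMSO. In CPM it was at 4.19, 97.0 and 31.5 in NECA and 0, 0 and 14.4 in DMSO. It was detected in every NECA library and in 1 of 3 DMSO libraries, and NECA replicate 1 lay below DMSO replicate 3. The log2 fold change was 3.21 (SE 1.67; edgeR unadjusted p = 0.0934, adjusted p = 0.738), and 1.90 (SE 1.58) without NECA replicate 2. The antisense genes Gm26793 and Gm39119 overlap Fgf15 and had 2 to 28 counts per NECA library and 0 to 14 per DMSO library.

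Fgf15 and Fabp6 did not appear together in every library. NECA replicate 1 had 65 counts of Fgf15 and 0 of Fabp6, while DMSO replicate 2 had 3 of Fabp6 and 0 of Fgf15. In the 3 libraries with both, the FPKM ratio of Fabp6 to Fgf15 was 126 in NECA replicate 2, 30.3 in NECA replicate 3 and 59.7 in DMSO replicate 3. Slc10a2 departed from Fabp6 in DMSO replicate 1, which had 39 counts of the transporter and 1 of the binding protein. NECA replicate 3 and DMSO replicate 3, with 2605 and 2159 counts of Fabp6, had 10 and 16 of Slc10a2. On the log2(CPM + 0.5) scale, with each gene centred on its own mean over the 6 libraries, the mean absolute difference from Fabp6 was 2.05 for Fgf15, 3.66 for Slc10a2 and 4.22 to 5.38 for the other 5 genes.

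**Figure D2:**
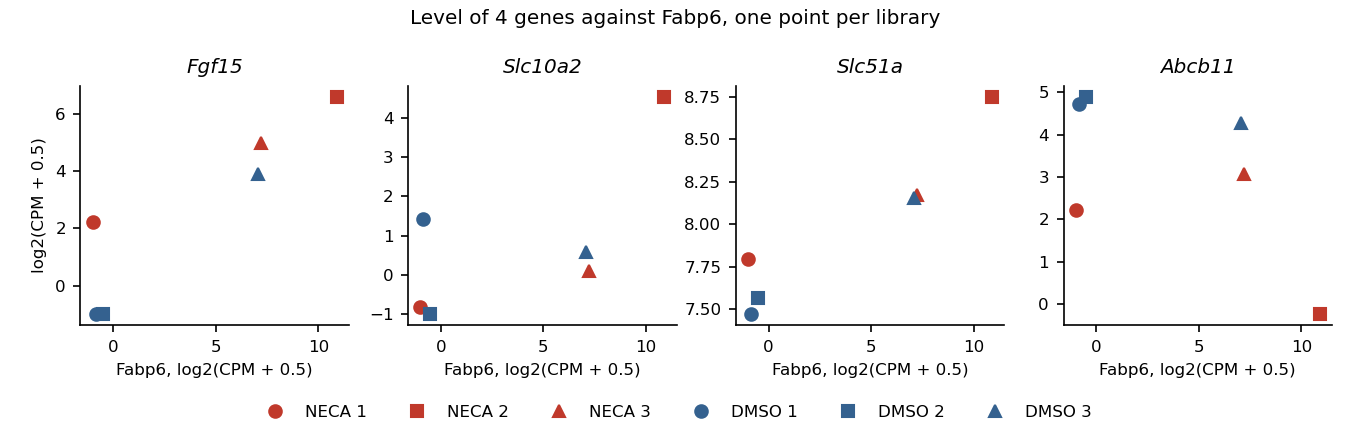
Level of Fgf15, Slc10a2, Slc51a and Abcb11 against that of Fabp6, both as log2(CPM + 0.5), one point per library (NECA red, DMSO blue). Fgf15 and Slc51a are highest in the 3 libraries with Fabp6, NECA replicate 1 has Fgf15 with 0 counts of Fabp6, and Abcb11 is lowest where Fabp6 is highest.

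Nr0b2 (ENSMUSG00000037583; chromosome 4, 133553376 to 133556536, plus strand), the repressor that Nr1h4 switches on, did not follow Fabp6. It was at 26.3, 7.37 and 25.1 CPM in NECA and 29.0, 31.5 and 20.2 CPM in DMSO. Its lowest level was in NECA replicate 2, where Fabp6 was highest, and the other 5 libraries lay within 20.2 to 31.5 CPM. The log2 fold change was -0.46 (SE 0.44; edgeR adjusted p = 0.767), and -0.06 (SE 0.21) without NECA replicate 2. In FPKM the ratio of Nr0b2 to Nr1h4 was 0.507, 0.0923 and 0.353 in NECA and 0.592, 0.738 and 0.306 in DMSO.

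Abcb11 (ENSMUSG00000027048; chromosome 2, 69238282 to 69342616, minus strand), the bile salt export pump, was the gene of the 8 that separated the groups. It had 65, 7 and 139 counts in NECA, against 465, 438 and 303 in DMSO. Every NECA library lay below every DMSO library, at 4.19, 0.348 and 7.97 CPM in NECA and 25.9, 29.3 and 18.9 CPM in DMSO. The mean was 4.17 ± 3.81 CPM in NECA and 24.7 ± 5.28 CPM in DMSO (SD, n = 3 each), a log2 fold change of -2.57 (SE 0.78; edgeR unadjusted p = 0.0114, adjusted p = 0.738). The difference was -2.01 (SE 0.32) without NECA replicate 2, in which the gene was lowest, and -3.48 (SE 0.86) without NECA replicate 3. Per length it was a minor transcript of the tissue, at 0.0671 to 1.55 FPKM in NECA and 3.65 to 5.58 FPKM in DMSO. Reads of the overlapping antisense gene Gm13613 numbered 0 to 2 per library. The 6 hepatocyte markers summed to 7.68 to 18.5 CPM in NECA and 1.90 to 5.00 CPM in DMSO, and none of them was at 0 in every library. The sum mixed unlike patterns: Fgb was at 0.645, 7.965 and 1.43 CPM in NECA and 0, 0 and 1.75 CPM in DMSO. Apoh had a lower mean in NECA, 0.48 against 0.545 CPM. A liver source of the Abcb11 reads was not tested. Alb, the most abundant of them, was at 0 in NECA replicate 2 and at 3.61 and 13.9 CPM in the other NECA libraries, and at 0.279 to 1.94 CPM in DMSO.

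**Figure D3:**
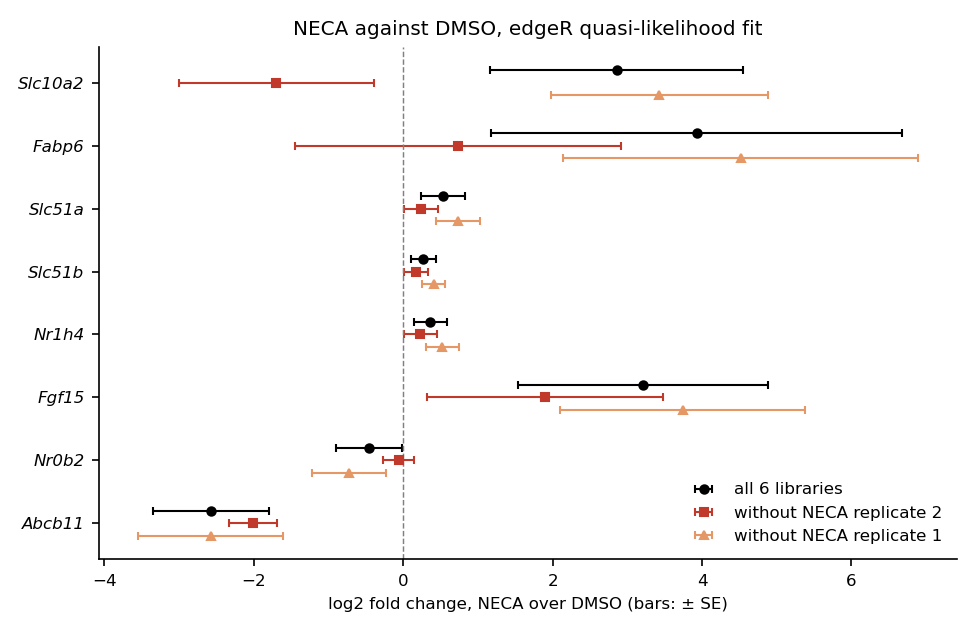
Log2 fold change of NECA over DMSO for the 8 genes, with bars of 1 SE, from all 6 libraries and without NECA replicate 2 or 1. Slc10a2 is 2.86 with all libraries and -1.70 without NECA replicate 2, and Abcb11 is below 0 in all 3 fits.

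Markers of position along the bowel were set beside these genes, and only some of them had a like order of libraries. Of the 10 proximal small bowel genes, 0 were higher and 10 lower in NECA, with a median log2 fold change of -0.66 against -0.01 over all genes tested; 0 passed the adjusted threshold, and 2 were lower at an unadjusted p under 0.05, as were 3.03% of all genes. The summed level of the list was low in NECA replicate 2 only. It was alike in NECA replicate 3 and DMSO replicate 3, which held Fabp6, and in the 3 libraries nearly without it. Apoa4, at 845 to 20740 CPM, was the largest part of that sum, and single genes differed from it. Onecut2, Bche and Rbp2 were lower in each of the 3 libraries with Fabp6 than in the 3 nearly without it, unlike the rest of the list. These 3 were picked out with the levels of Fabp6 known, and the share of all genes with such a split was not counted. Onecut2 was at 53.7, 0.0498 and 19.15 CPM in NECA and 86.8, 87.5 and 36.6 CPM in DMSO. Ada, which deaminates adenosine, was at 17.3, 10.9 and 24.7 CPM in NECA and 65.9, 58.5 and 43.4 CPM in DMSO (log2 fold change -1.67, SE 0.31; edgeR adjusted p = 0.738). Pdx1, a duodenal and pancreatic transcription factor, had a log2 fold change of -3.46 (SE 0.88) and Bche, butyrylcholinesterase, of -0.64 (SE 0.29). The levels of Pdx1 were 1.87, 0.199 and 0.631 CPM in NECA and 15.7, 10.9 and 2.31 CPM in DMSO. In 3 of the 10 genes, Pdx1, Ada and Gkn3, NECA lay below DMSO without overlap, as in 7.16% of all genes. Without NECA replicate 2 the median was -0.26, with 2 genes higher and 8 lower. Of the 5 distal small bowel genes 4 were higher and 1 lower, with a median of 0.30 and 0 past the adjusted threshold, and 2 of them, Muc3 and Osr2, were higher at an unadjusted p under 0.05, as were 2.45% of all genes. Without NECA replicate 2 the median was 0.38, with 3 higher and 2 lower. Muc3, a membrane mucin, was at 55.8, 286 and 136 CPM in NECA and 22.0, 24.8 and 79.4 CPM in DMSO, and was thus highest in the same 3 libraries as Fabp6. Osr2, a transcription factor, was at 31.0, 64.0 and 29.0 CPM in NECA and 6.02, 7.62 and 30.4 CPM in DMSO, and Clec2h at 406, 558 and 460 CPM in NECA and 625, 660 and 450 CPM in DMSO. Cubn, an ileal receptor subunit for vitamin B12 uptake, was at 168, 201 and 204 CPM in NECA and 202, 166 and 192 CPM in DMSO (log2 fold change 0.03, SE 0.16), and neither it nor Clec2h had the order of libraries seen in Fabp6 and Fgf15. The labels name no bowel segment, so a difference in the stretch of bowel sampled and a difference in transcription cannot be told apart; in such bulk tissue, fewer cells of a type and less RNA per cell cannot be told apart either.

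**Figure D4:**
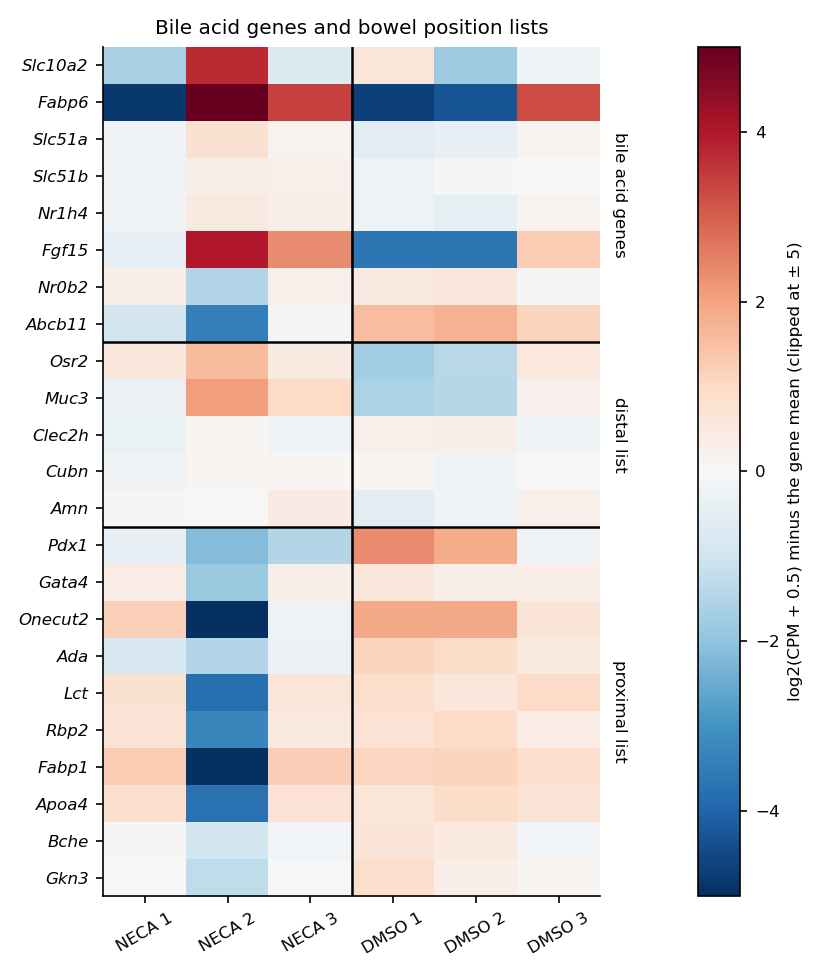
Levels of the 8 genes, the 5 distal and the 10 proximal small bowel genes in each library, as log2(CPM + 0.5) minus the gene's mean, NECA left of the line and DMSO right, red above and blue below the mean. The proximal genes are lowest in NECA replicate 2, where Fabp6 and Fgf15 are highest.

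Lists of other cell types and regions gave further context. The 2 tested of 5 colon genes were led by the water channel Aqp8, at 51.6, 1.89 and 56.5 CPM in NECA and 235, 236 and 70.3 CPM in DMSO (log2 fold change -2.30, SE 0.99); Mptx1 (0.49, SE 0.82) was the other, and both were lower without NECA replicate 2. Of the 3 colon genes that did not pass the filter, Hoxd13 was at 0 in every library. Car1, a carbonic anhydrase, and Hoxb13, a homeobox factor of the hindgut, had 137 and 28 counts in DMSO replicate 1 and 0 to 2 in the other libraries. Aqp8 did not follow them: it was as high in DMSO replicate 2, where both had 0 counts. All 4 leukocyte markers were lower in NECA, with summed levels of 69.4 to 100 CPM in NECA and 109 to 131 CPM in DMSO, led by Ptprc (-0.81, SE 0.18), Laptm5 (-0.57, SE 0.15) and Cd52 (-0.76, SE 0.24). These 3 had an unadjusted p under 0.05 and lay below DMSO without overlap, as 3.03% and 7.16% of all genes did. All 5 smooth muscle markers were lower, led by Cnn1 (-0.57, SE 0.31), Acta2 (-0.53, SE 0.33) and Des (-0.50, SE 0.36), and summed to 2515 to 2743 CPM in NECA and 2259 to 5698 CPM in DMSO. Of the 7 epithelial genes 6 were higher, led by Krt8 (0.62, SE 0.34), Vil1 (0.46, SE 0.27) and Cdx2 (0.25, SE 0.21). The median of the 7 was 0.25, and without NECA replicate 2 it was 0.04, with 4 higher and 3 lower. The leading hepatocyte markers were Alb (2.50, SE 1.39), Fgb (2.53, SE 1.41) and F2 (0.58, SE 0.46), with a median of 2.50 over the 3 tested, and of 0.85 over the 5 tested without NECA replicate 2. Of the 6 pancreatic acinar markers 2 were tested, Cela1 (-1.15, SE 0.53) and Ctrb1 (0.39, SE 1.17), and their summed level was 4.63 to 100 CPM in NECA and 54.4 to 89.1 CPM in DMSO, where NECA replicate 2 was the lowest of all. The median of the 2 was -0.38, and 0.13 without that library. No gene of these lists passed the adjusted threshold in edgeR, and the part of these cell types in the results above was not tested.

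Around the 8 genes, no other listed gene of the bile acid pathway passed the adjusted threshold in edgeR, nor in the unadjusted test at 0.05. Among 11 bile acid receptors and partner transcription factors, 10 were tested, 6 higher and 4 lower in NECA, with a median log2 fold change of 0.07 and 0 past the adjusted threshold or an unadjusted p under 0.05. Nr5a2 (0.49, SE 0.30), a nuclear receptor of liver and gut, the vitamin D receptor Vdr (0.46, SE 0.32) and Hnf4a (0.27, SE 0.23), a nuclear receptor of gut and liver epithelium, had the smallest p of the list. Nr5a2 was at 29.6, 52.6 and 25.9 CPM in NECA and 27.4, 19.3 and 30.4 CPM in DMSO. Vdr was at 44.7, 95.2 and 47.8 CPM in NECA and 58.1, 35.1 and 43.7 CPM in DMSO. In both genes only NECA replicate 2 lay above the DMSO range. Of the 12 other transporters of bile acids and biliary lipids, 8 were tested, 4 in each direction, with a median of -0.03; without NECA replicate 2, 9 were tested, 5 higher and 4 lower, with a median of 0.06. Atp8b1, a lipid flippase, was at 301, 325 and 246 CPM in NECA and 223, 142 and 240 CPM in DMSO (0.53, SE 0.24; edgeR unadjusted p = 0.0570, adjusted p = 0.738). The basolateral exporter Abcc3 (-0.59, SE 0.29) and the organic anion carrier Slco2b1 (-0.45, SE 0.26) followed. By CPM, over the tested genes of the pathway lists, NECA lay above DMSO without overlap in Atp8b1 and Hnf4a, as in 6.51% of all genes. It lay below in Cyp7b1, Acot8 and Fabp5, as in 7.16% of all genes. For Hnf4a the lowest NECA library was at 695.2 CPM and the highest DMSO library at 694.4 CPM. For Acot8 the highest NECA library was at 32.69 CPM and the lowest DMSO library at 32.78 CPM. In FPKM the groups overlapped in both of these genes.

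Genes of bile acid synthesis were measured at very different levels. Cyp7a1, the rate-limiting enzyme of the pathway in liver and the gene that Fgf15 represses in liver, had at most 3 counts in every library, as did Hsd3b7. Of the 14 genes of synthesis and conjugation 8 were tested, 2 higher and 6 lower in NECA, with a median of -0.15, or -0.05 without NECA replicate 2, and 0 past either threshold. Scp2 and Hsd17b4, peroxisomal proteins that also act in fatty acid breakdown, were the most abundant, at 170 to 658 and 129 to 360 CPM in NECA and 533 to 668 and 203 to 295 CPM in DMSO. The 3 with the smallest p were Acot8 (-0.31, SE 0.16), a peroxisomal thioesterase, Acox2 (1.09, SE 0.61), a peroxisomal oxidase, and Cyp7b1 (-0.50, SE 0.30), a hydroxylase of the alternative pathway. Acox2 was at 5.94, 34.25 and 8.77 CPM in NECA and 6.13, 8.08 and 8.93 CPM in DMSO, so that only NECA replicate 2 lay above DMSO. The receptor side of Fgf15 was present at low level: Fgfr4 was at 6.97, 19.9 and 6.94 CPM in NECA and 6.30, 5.08 and 6.99 CPM in DMSO (0.88, SE 0.43), and its co-receptor Klb at 1.23, 9.41 and 5.68 CPM in NECA and 3.12, 0.802 and 5.87 CPM in DMSO (0.74, SE 0.80). Malrd1, which in mice governs how much Fgf15 enterocytes release, was at 25.6, 65.9 and 23.4 CPM in NECA and 32.1, 8.35 and 31.5 CPM in DMSO (0.68, SE 0.57). All 3 were highest in NECA replicate 2, and the median of the 3 was 0.74 with all libraries and 0.08 without that one. Of the 8 other fatty acid-binding proteins 6 were tested, 2 higher and 4 lower, led by Fabp5 (-0.29, SE 0.16), Fabp7 (-0.51, SE 0.29) and Fabp2 (-0.46, SE 0.64), and Fabp9 was at 0 in every library. Their median was -0.32, and without NECA replicate 2 it was 0.11, with 4 higher and 2 lower.

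**Figure D5:**
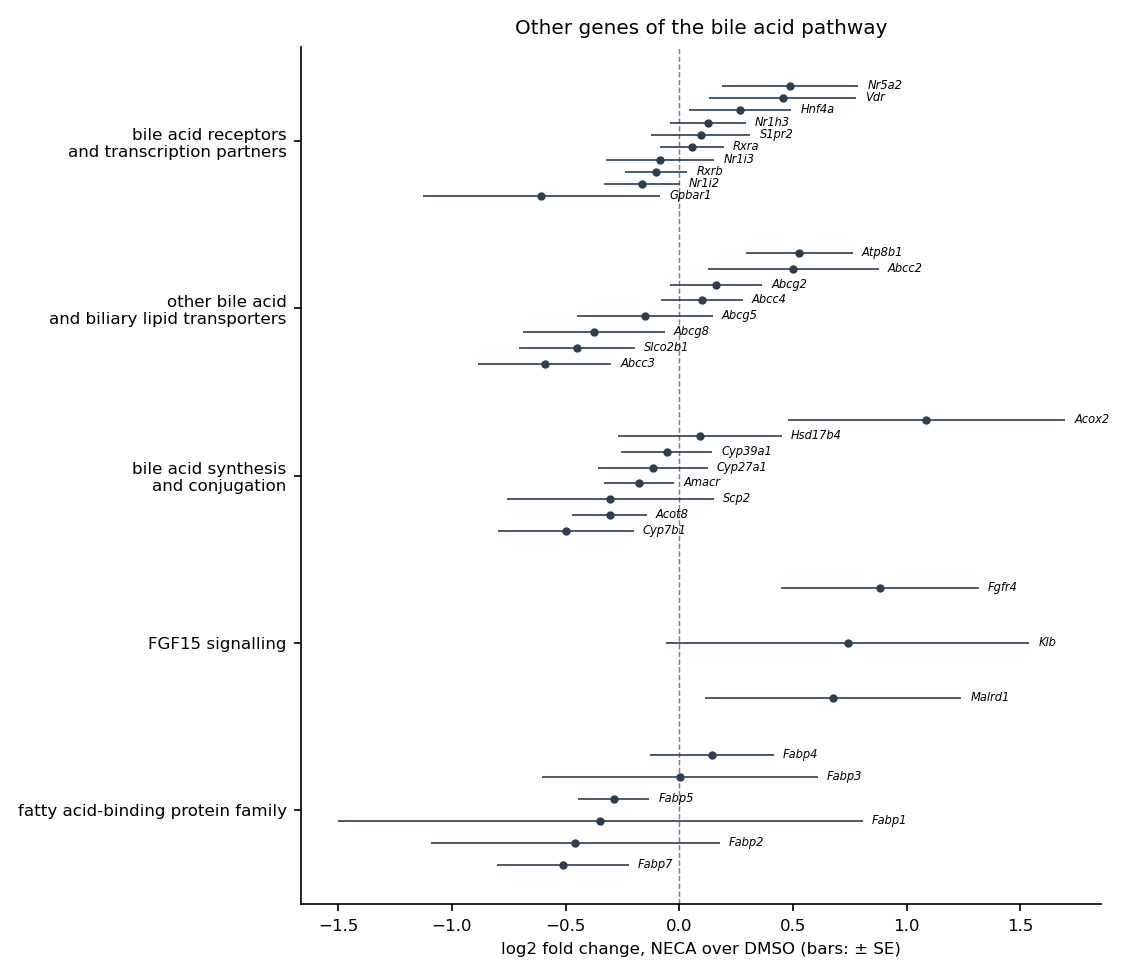
Log2 fold change of NECA over DMSO, with bars of 1 SE, for each tested gene of the bile acid receptor, transporter, synthesis, FGF15 signalling and fatty acid-binding protein lists. Medians per list run from -0.32 to 0.74, and none of these genes passed the adjusted threshold.

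Leaving out the 8 genes themselves, the genes nearest in pattern to Fabp6 were taken from 13574 named genes by the same centred log2(CPM + 0.5) difference, over 6 libraries. They were Reg3b (mean absolute difference 1.49), Reg3g (2.17), Xist (2.38), Cldn8 (2.82) and Fga (2.86); Fgf15, at 2.05, was nearer than all but the first. Reg3b, an antimicrobial lectin, was at 28.1, 5111 and 264 CPM in NECA and 5.57, 1.74 and 320 CPM in DMSO. Xist, the RNA of the inactive X chromosome in female cells, was at 0.710, 251 and 170 CPM in NECA and 241, 0.935 and 365 CPM in DMSO. It was thus high in DMSO replicate 1, where Fabp6 had 1 count. NECA replicate 1 and DMSO replicate 2 had 11 and 14 counts of Xist, against 2956 to 5840 in the others. By Xist alone, sex thus differed between libraries within both groups, which would place tissue of more than 1 animal in each group. The part of sex in the results above was not tested. The 5 nearest to Fgf15 were Reg3g (0.924), Fga (0.978), Reg3b (0.987), Naaladl1 (1.02) and Sult6b2 (1.07). Naaladl1, a peptidase, was at 386, 1321 and 627 CPM in NECA and 32.8, 39.1 and 356 CPM in DMSO, so that like Fgf15 it was higher in NECA replicate 1 than in DMSO replicates 1 and 2. Likeness over 6 libraries is a description, and library identity, position markers and depth are shared by all these genes.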

How the data were processed

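RNA of newborn mouse intestine was measured in 6 libraries, 3 with NECA and 3 with DMSO, grouped by their titles. SMARTer synthesis of cDNA, PCR amplification and paired-end sequencing are recorded per the labels' protocols. For 54532 genes the authors deposited raw whole-number counts and FPKM values, as the file headers name them. Per the submitters' processing notes, HISAT, StringTie and edgeR and the builds mm10 and GRCm38 were used, and no version, strand setting or rule for multiply mapped reads is stated there. The FPKM values equalled the count divided by 1 value per gene and 1 per library, within 2.7e-09 over 11776 genes.

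Counts were filtered with filterByExpr (minimum count 10, minimum total 15), scaled by TMM and tested over 15847 genes with edgeR 4.0.16 (glmQLFit, glmQLFTest; R 4.3.3), without covariates, two-sided, with Benjamini-Hochberg adjustment and a threshold of 0.05. The SE of an edgeR fit is the absolute log2 fold change over the square root of its F statistic. DESeq2 1.42.0 and limma 3.58.1 served as alternatives. The fit was also run on simulated counts, drawn with the same relative spread for all genes and no library unlike the others. That run therefore says nothing on genes whose values turn on a single library. Total counts of 15531996 to 18065078 set the depth, and the floor for a count of 0 is 3 counts; intervals of counting error understate the error of amplified reads. Gene coordinates are from GENCODE M21 (GRCm38), which held 54409 of the identifiers. The 8 genes and the other lists were chosen with earlier results of these data known. By rule the named genes were the 8, up to 3 of each other list with the smallest p, and the 5 nearest in pattern to Fabp6 and to Fgf15 with a mean of at least 1 CPM. Other genes were named outside this rule with their values known, among them Onecut2, Rbp2, Apoa4, Cubn, Scp2, Hsd17b4, Car1 and Hoxb13. Fabp1 is also on the proximal list. Some genes of the lists are not reported here.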

Additional observations from a re-analysis of the deposited data

How the results depend on the processing

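In each of the 13 alternative fits, 0 of the 8 genes were called, though Slc10a2 did not pass the stricter filter (5 CPM in 3 libraries) and was not tested there. Over all genes, 2 were called with no filter on low counts, 11 by DESeq2 and 0 under each other alternative. The number of the 8 at an unadjusted p under 0.05, 1 with all libraries, was 3 with no filter, 2 with library quality weights (limma), 2 leaving out both libraries numbered 2, and 1 to 4 over the fits that leave out a single library, the 3 and 4 without NECA replicate 1 and DMSO replicate 3. Abcb11 was among them in every fit. The others were Fgf15 and Slc10a2 with no filter and Fgf15 with library quality weights, all higher in NECA. They were Slc51a and Slc51b without NECA replicate 1, and Slc51a, Fabp6 and Fgf15 without DMSO replicate 3. Leaving out both libraries numbered 2, the other was Slc10a2, lower in NECA. Slc10a2 reversed to -1.39 with quality weights, -1.70 without NECA replicate 2 (up to 3.91 without DMSO replicate 1) and -2.25 without both libraries numbered 2, and Nr0b2 to 0.064 in that last fit. Abcb11 stayed below 0 in all 13, from -3.48 to -1.87 (adjusted p 0.198 to 0.940). Fabp6 ran from 0.15 to 4.52 and Fgf15 from 1.33 to 6.12, leaving aside the fit without DMSO replicate 3, where DMSO held 4 and 0 counts. Groups of 1 of the 8 genes, Abcb11, did not overlap by CPM or by deposited FPKM. With 2 CPM added in place of 0.5, 3 of the 5 genes nearest Fabp6 and 1 of the 5 nearest Fgf15 were the same. With the replicate block 0 genes and 0 of the 8 were called (Abcb11 -3.01, SE 0.96). Deviations of same-numbered libraries correlated at 0.02, -0.19 and -0.04 over genes, so the numbers were not taken as pairs. Depth limits Slc10a2, at 1 to 39 counts in 4 libraries and 0 in another.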

Other observations

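Genes with a pattern like that of Abcb11, looked up after its values were seen, were Sucnr1 (mean absolute difference 0.332), Tmprss6 (0.357), Slc37a2 (0.403), Notum (0.562) and Apoc3 (0.625). Sucnr1, the receptor for succinate, was at 1.81, 0.0498 and 1.84 CPM in NECA and 7.41, 11.4 and 7.06 CPM in DMSO. Tmprss6, a protease that acts on iron regulation in liver, was at 3.29, 0 and 3.04 CPM in NECA and 7.58, 16.8 and 9.05 CPM in DMSO. The Wnt inhibitor Notum was at 1.87, 0.249 and 2.81 CPM in NECA and 5.80, 6.61 and 5.25 CPM in DMSO. Apoc3 was at 1817, 125 and 1893 CPM in NECA and 1853, 3707 and 2280 CPM in DMSO, so that its groups overlapped. Being chosen for likeness to Abcb11, the 5 genes tend to carry its lower level in NECA by construction, and their direction is no separate result. Aqp8 had the same order of libraries as Abcb11, with DMSO replicate 2 first and NECA replicate 2 last.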
